A study of Cricetiscus sungorus with 216 samples.

Results

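The insulin-like growth factor (IGF) genes described here are the ligands Igf1 and Igf2, the type 1 receptor Igf1r and the binding proteins Igfbp2, Igfbp3, Igfbp4, Igfbp5 and Igfbp7. They were chosen by symbol, and all 8 were listed in each of the 4 tissue tables, among 20156 gene symbols in the mediobasal hypothalamus (MBH), 21821 in the dorsomedial hypothalamus (DMH), 18960 in the paraventricular nucleus (PVN) and 22482 in the pituitary gland. The tissues came from 54 adult male Djungarian hamsters (Siberian hamsters in the labels) of a laboratory colony, aged 3 to 8 months, with 6 hamsters in each of 9 groups. The control group stayed in long photoperiod (LP, LD in the labels) of 16 h light. The other groups were held in short photoperiod (SP, SD in the labels) of 8 h light for 4, 8, 12, 16, 20, 24, 28 or 32 weeks. No hamster carried an engineered allele or received a drug, and each hamster gave 1 library of each of the 4 tissues. The phases of the circannual timer are called here induction (weeks 4 and 8), maintenance (weeks 12, 16 and 20) and recovery (weeks 24, 28 and 32).

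IGF1 and IGF2 are secreted growth factors that act through the IGF1 receptor, a receptor tyrosine kinase related to the insulin receptor. Binding proteins hold the ligands outside the cell, lengthen their lifetime and limit or aid their access to the receptor, and proteases release the ligand again. Circulating IGF1 comes largely from the liver under the control of growth hormone, and it feeds back on growth hormone release at the hypothalamus and the pituitary gland. Within the brain, Igf2 is known from the choroid plexus and leptomeninges, Igfbp2 from astrocytes, tanycytes and leptomeninges, and Igfbp7 from blood vessels.

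Depth and labels set limits on what could be seen. Library totals (estimated counts summed over a table) ranged from 5996 to 13208361 in the MBH, 149289 to 9084072 in the DMH, 159 to 998245 in the PVN and 29219 to 523544 in the pituitary gland. Under 10000 counts lay 1 MBH library (20 weeks SP) and 2 PVN libraries (LP and 16 weeks SP). The factors of the trimmed mean of M-values (TMM) ran from 0.0850 to 7.90 in the DMH and from 0.568 to 1.62 in the pituitary gland. Pomc was read in 54 of 54 MBH libraries and Agrp in 53, Trh in 51 PVN libraries, and Gh, Prl and Lhb in all 54 pituitary gland libraries. Of the DMH markers, Pmch was read in 44 libraries but Npvf in 9 and Ppp1r17 in 15. The pituitary genes Cga and Tshb were read in 53 and 34 MBH libraries. In tissue punches, fewer cells of a type and less RNA per cell cannot be told apart, so every level below is a level per tissue sample.

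Counts of the IGF genes were small, and the tables repeat reads over isoforms. In the MBH, the 20 isoforms of Igf1 summed to 839 counts over 54 libraries while its highest isoform held 62. Both isoforms of Igfbp7 had the same value in 50 of the 51 MBH libraries with a count. Igfbp5 is a single isoform in every table, so its 745 counts in the MBH are free of this repetition. The PVN table shares 0 isoform identifiers with the others, and no PVN level was compared with a level in another tissue. Values are given as CPM, counts scaled to a common library total after TMM and summed over the isoforms of a gene. They are compared between groups, and not between genes, whose lengths were not known here.

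In the MBH all 8 genes were read in at least 29 of 54 libraries. Igf1 was read in 29, Igfbp3 in 36, Igfbp4 in 39, Igf2 in 47, Igf1r and Igfbp5 in 50, Igfbp7 in 51 and Igfbp2 in 52. Averaged over the 54 libraries, Igf2 had 16.4 ± 18.3 CPM (SD), Igf1r 13.9 ± 8.48, Igfbp2 8.07 ± 6.23 and Igfbp5 7.17 ± 3.66 CPM. Igf1 had 8.25 ± 15.6 CPM.

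**Figure D1:**
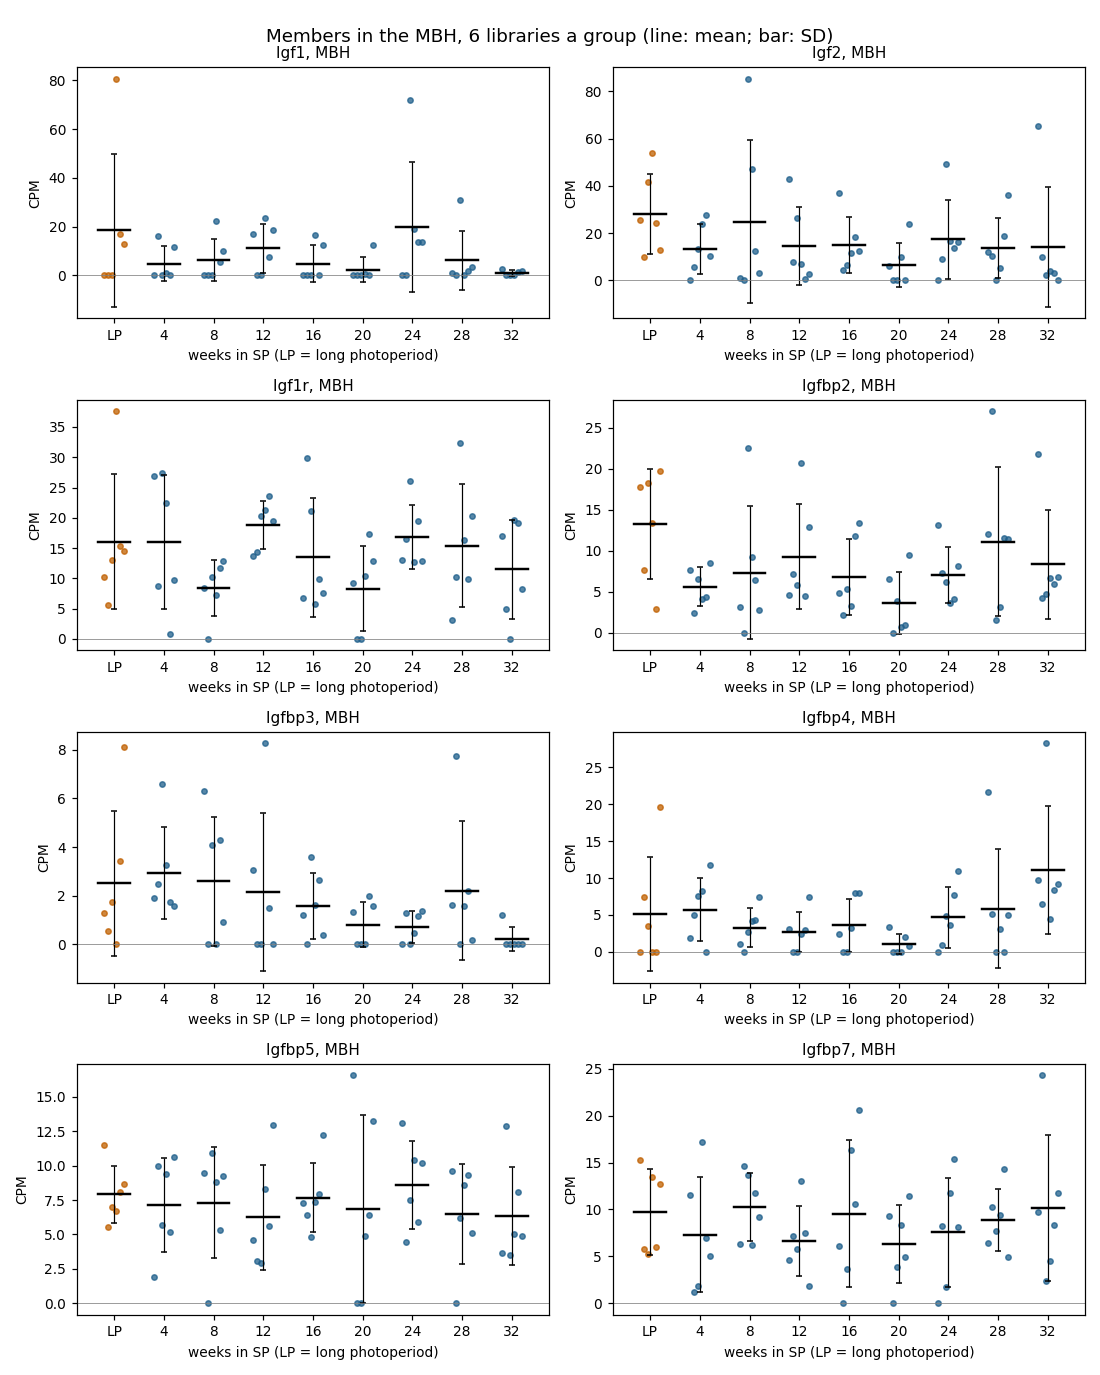
CPM of the 8 IGF genes in the MBH (vertical axes) in each of 54 libraries by group (horizontal axis, LP and weeks of SP, 6 hamsters each). Points are libraries (orange LP, blue SP), horizontal lines are group means and bars are SD. Igf2 and Igfbp2 have their highest mean in LP and their lowest at 20 weeks, and the groups overlap with LP in every panel.

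Igf2, the fetal growth factor that stays expressed around the adult brain, had its highest MBH mean in LP. Its LP libraries lay between 10.1 and 53.7 CPM with a median of 24.9 and a mean of 28.0 ± 16.9 (SD, n = 6). At 20 weeks SP the mean was 6.58 ± 9.36 CPM, with a lowest value of 0, a median of 2.98 and a highest of 23.8. In 2 hamsters at 20 weeks Igf2 was read below every LP value, with 5.95 and 9.71 CPM, and in 1 within the LP range. In the other 3 it had 0 counts, which allows between 1.48 and 112 CPM in a single library (3 counts), so that not all of these can be placed below LP. The exact 2-sided permutation test of this difference gave p = 0.0173, and 0.554 after Benjamini-Hochberg (BH) adjustment over the 64 tests of IGF genes and weeks in the MBH. Without the 1 shallow library the exact p was 0.0433. At 8 weeks the mean was again high, 24.8 CPM, with an SD of 34.5.

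Igfbp2, a binding protein that favours IGF2, also had its highest mean in LP and its lowest at 20 weeks. It had 13.3 ± 6.69 CPM in LP (lowest 2.98, median 15.6, highest 19.7), 5.63 ± 2.36 at 4 weeks (2.49, 5.46 and 8.58) and 3.61 ± 3.79 at 20 weeks (0, 2.44 and 9.46). It had 11.1 ± 9.07 CPM at 28 weeks and 8.39 ± 6.64 at 32 weeks (SD, n = 6 each). The LP range covered the 4-week range almost whole. Exact permutation tests against LP gave p = 0.0390 at 4 weeks and 0.0152 at 20 weeks, adjusted 0.623 and 0.554, and 0.0303 at 20 weeks without the shallow library. In the edgeR fit the log2 fold change was -0.97 ± 0.49 (SE) in induction and -0.97 ± 0.46 in maintenance, with unadjusted p of 0.0528 and 0.0397 and, in maintenance, an FDR of 0.814. The SE of an edgeR fold change is here the fold change divided by the square root of the F statistic, so it restates p.

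Igf1 was spread widely within groups. It was read in 4 of the 6 LP libraries, from 0 to 80.6 CPM around a median of 6.51, and in 4 of 6 at 24 weeks, from 0 to 71.8 around a median of 13.6. At 32 weeks it lay between 0 and 2.42 CPM, with a median of 0.746. The edgeR log2 fold change at 32 weeks was -4.10 with an SE of 1.47 and an FDR of 0.814. Igf1 in LP and at 24 weeks differed by far less than the spread between hamsters.

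Igfbp3 and Igfbp4 had their extremes at 32 weeks, in opposite directions. Igfbp3, the main carrier of IGFs in plasma, was read in 5 of 6 LP libraries (0 to 8.11 CPM, median 1.51) but in 1 of 6 at 32 weeks, with 1 count. Its highest group mean was 2.93 ± 1.90 CPM at 4 weeks, where all 6 libraries (1.59 to 6.59 CPM) lay above the 1.21 CPM of that library. These 2 groups were taken as the ends of an order. The 5 libraries with 0 counts at 32 weeks allow 0.895 to 3.54 CPM each, which reaches into the 4-week range, so a separation is not shown. The edgeR log2 fold change against LP was -3.93 ± 1.16 (SE) at 32 weeks (FDR 0.722) and -1.98 ± 0.72 over recovery (FDR 0.641). Igfbp4, a binding protein cleaved by pappalysins, had 1.01 ± 1.37 CPM at 20 weeks and 11.1 ± 8.65 at 32 weeks (lowest 4.48, median 8.76, highest 28.3). The values of these groups did not overlap, but they were taken as the ends of an order, and 3 of the 20-week libraries had 0 counts, which allows between 2.08 and 112 CPM in a single library. Recovery against maintenance gave 1.5 ± 0.56 with an FDR of 0.847, beside 0.00992% of all genes called.

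Igfbp5 and Igfbp7 were the steadiest. Group means of Igfbp5, a binding protein that attaches to matrix, lay between 6.23 and 8.60 CPM, and its phase log2 fold changes against LP were -0.04, -0.06 and -0.17. Group means of Igfbp7, a vessel protein that binds IGFs weakly, lay between 6.31 and 10.3 CPM, with -0.16, -0.24 and -0.05. Igf1r varied more. It had 16.0 ± 11.1 CPM in LP, its highest mean, 18.8 ± 3.95, at 12 weeks and its lowest, 8.30 ± 7.0, at 20 weeks.

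None of the 8 genes changed in the MBH over the 9 groups by the edgeR quasi-likelihood F-test at an FDR below 0.1, where 0.442% of all genes did, 89 of 20156. One, Igfbp3, had an unadjusted p below 0.05 (0.0494), against 1615 of all genes. The phase contrasts called 0 of the 8, against 0.0447% of all genes in induction, 0.203% in maintenance and 0.169% in recovery, and 0, 1 and 1 of the 8 had an unadjusted p below 0.05. All 8 log2 fold changes lay below 0 in maintenance (median -0.82, all genes 0.00), as did 7 in induction (median -0.29) and 7 in recovery (median -0.42). By edgeR 4 and by DESeq2 as well, 0 of the 8 genes passed over the groups or in a phase in the MBH and in the PVN. Each of these values shares the LP libraries, so the counts of signs are not separate observations. In all, 50 of the 96 phase values of the 8 genes in the 4 tissues changed sign under some alternative processing.

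**Figure D2:**
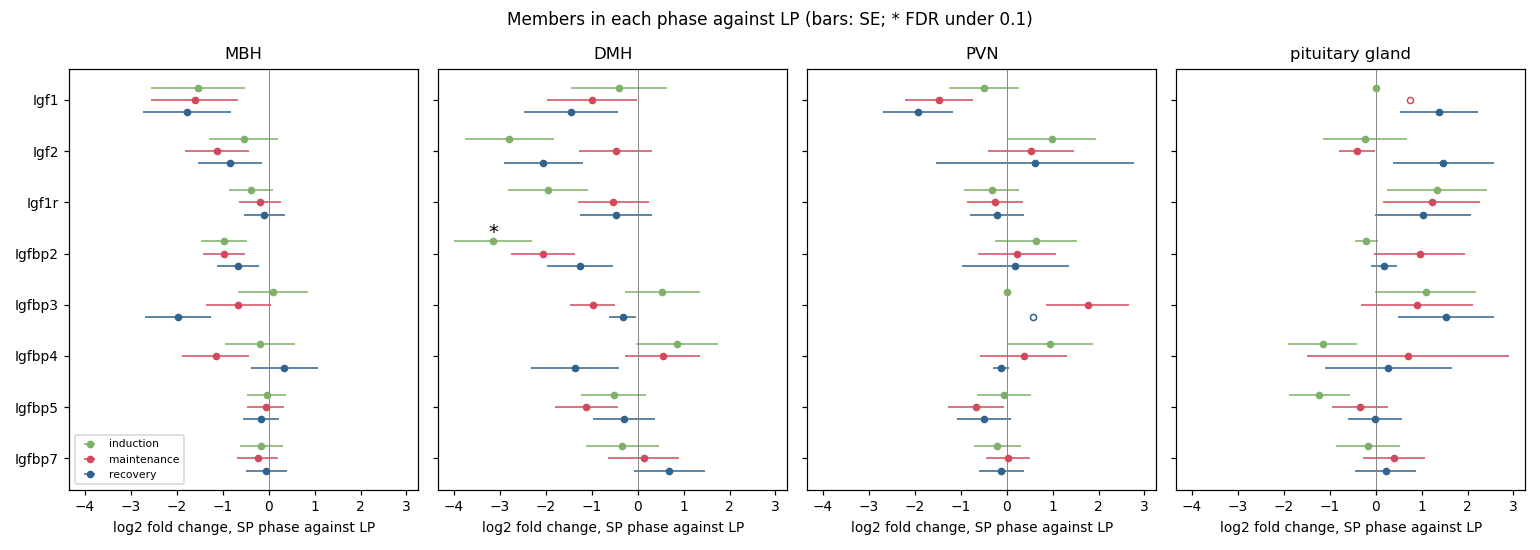
Log2 fold change against LP (horizontal axis) of the 8 IGF genes (rows) in induction, maintenance and recovery in each tissue, from edgeR. Bars are SE derived from the F-test (fold change over the square root of F), and open symbols have no usable SE. The asterisk marks the single value with an FDR below 0.1, Igfbp2 in the DMH in induction.

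Among the 8 genes and 4 tissues, Igfbp2 in the DMH was the single case whose difference between SP and LP passed the threshold. It was read in 5 of the 6 LP libraries, with 1.20, 0.860, 0, 1.6, 1.53 and 0.660 CPM from 11, 3, 0, 22, 6 and 1 counts, of which the highest isoform held 5, 1, 0, 12, 2 and 0. At 4 weeks SP 2 libraries had 0.655 and 1.23 CPM and the other 4 had 0. At 8 weeks all 6 libraries had 0 counts, which allows up to 0.190 CPM over the group (3 counts), beside 1.34 CPM in the pooled LP libraries. No ratio of these pooled values is given, since the counts of LP repeat reads over isoforms. The same repetition enters the edgeR fold changes below. At 12 weeks 1 library had 0.0855 CPM, from 1 count, and the rest 0. In a single library a count of 0 allows 0.575 to 11.04 CPM at 8 weeks and 0.383 to 4.92 CPM at 12 weeks, which reaches the LP values, so the libraries cannot be ordered one by one. Above every LP value lay 1 library at each of 20, 28 and 32 weeks, with 3.89, 2.45 and 1.96 CPM from 4, 1 and 1 counts.

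Over the 9 groups DMH Igfbp2 changed with an FDR of 0.0773, the only one of the 8 genes, beside 4.62% of all genes. It fell by 3.15 ± 0.85 (SE) on the log2 scale in induction (FDR 0.0912), where 0.669% of all genes passed and the median of all genes was -0.17. Of the 146 genes that passed there, 145 were lower in SP, so the direction was not particular to Igfbp2. The induction value averages in 8 weeks, where the log2 fold change was -5.22, a size that 0 counts cannot fix. Its values in maintenance, -2.06 ± 0.69, and in recovery, -1.25 ± 0.71, did not pass (FDR 0.188 and 0.688), beside 0.898% and 0.293% of all genes. The call over the groups was kept in 2 of 12 alternatives (FDR 0.0365 to 1) and the call in induction in 1 of 12 (0.0669 to 1), and edgeR's filterByExpr drops the gene. Exact permutation tests gave p = 0.0152 at 8 and at 12 weeks, adjusted 0.485. The neuron markers moved in the same libraries: their summed level had a group median of 602 CPM in LP and 85.3 to 395 CPM in the SP groups. The tanycyte list, 10 of 10 genes listed but Rax read in 2 libraries, had 5.73 CPM in LP and 0.486 to 5.66 in SP. The part of these in the Igfbp2 values was not tested.

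Igf2 in the DMH had its highest mean at 12 weeks, then at 20 weeks and in LP. It was read in 4 of 6 LP libraries (2.50, 0, 0, 1.6, 1.79 and 0.660 CPM), at 0.0528 ± 0.129 CPM at 8 weeks and at 1.73 ± 3.12 at 12 weeks, where 1 library had 7.97 CPM. Its log2 fold change in induction was -2.79 ± 0.96 with an FDR of 0.208, and over the 9 groups the FDR was 0.135. The other DMH genes were read in 5 (Igfbp3) to 37 (Igfbp7) of 54 libraries. Igfbp7 ran from 0.892 ± 0.833 CPM at 24 weeks to 5.15 ± 7.32 at 28 weeks, and Igf1r from 0.468 ± 0.565 at 8 weeks to 2.11 ± 2.39 in LP. The 8 genes had median log2 fold changes of -0.47, -0.75 and -0.86 in the 3 phases, with -0.17, -0.26 and -0.26 for all genes.

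**Figure D3:**
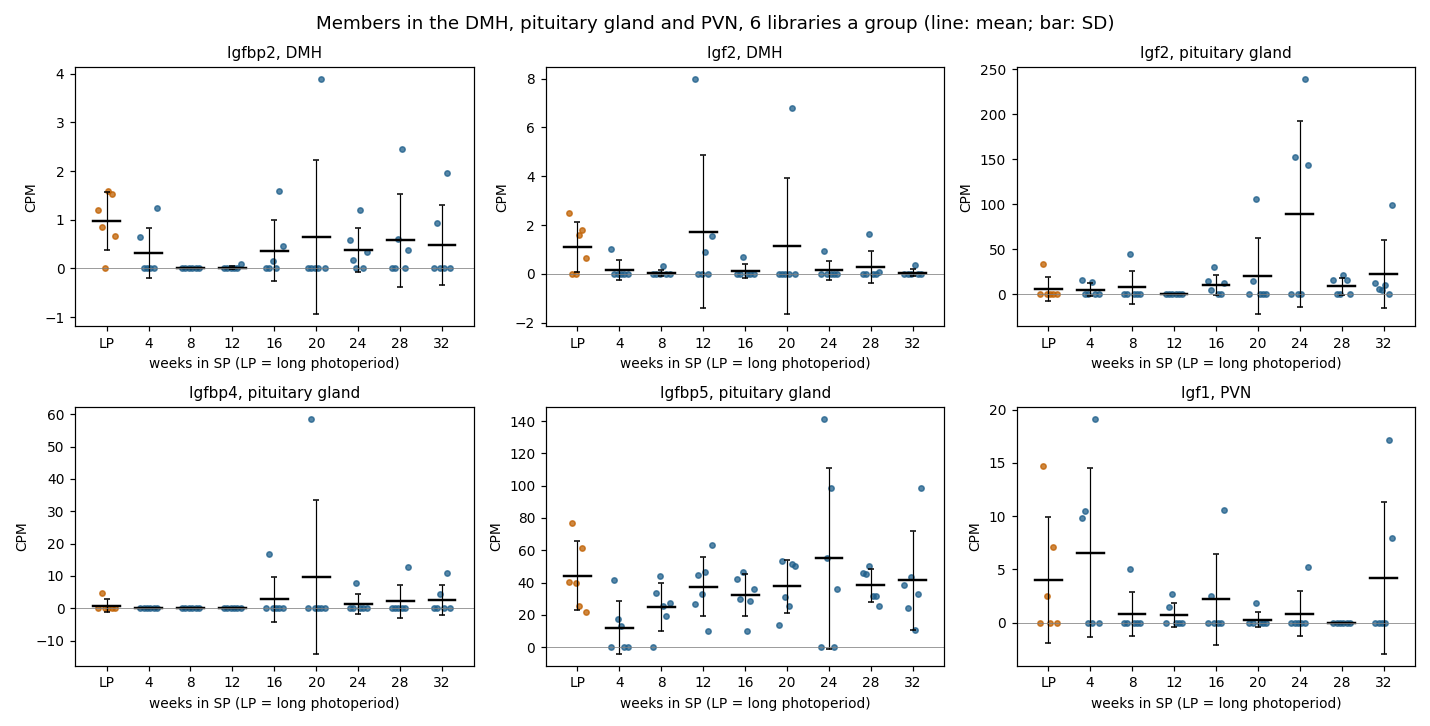
CPM in each library (vertical axes) by group (horizontal axis, LP and weeks of SP, 6 hamsters each) of Igfbp2 and Igf2 in the DMH, Igf2, Igfbp4 and Igfbp5 in the pituitary gland, and Igf1 in the PVN. Horizontal lines are group means and bars are SD. DMH Igfbp2 is at 0 in all 6 libraries at 8 weeks, and pituitary Igf2 is high in 3 libraries at 24 weeks and at 0 in the other 3.

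Igf2 in the pituitary gland changed over the 9 groups (edgeR FDR 0.0244), again 1 of the 8 genes, beside 9.56% of all genes. At 24 weeks SP 3 libraries had 152.1, 239 and 143 CPM and the other 3 had 0. In LP 1 library had 33.6 CPM and 5 had 0. That LP library held 7 counts, of which the highest isoform had 1. At 12 weeks all 6 libraries had 0 counts, which allows up to 4.72 CPM over the group (3 summed counts). The 3 high libraries held 28, 14 and 8 counts, of which the highest isoform had 4, 2 and 1. With 3 summed counts, the 3 libraries at 0 allow 23.6 to 51.8 CPM each. Reads of Igf2 are repeated over isoforms, so these limits are too low. The 3 libraries at 0 therefore cannot be placed below the 3 high values of the same group. The call was kept in 9 of 12 alternatives (FDR 7.1e-05 to 1) and lost with DESeq2, with the highest isoform (FDR 0.226) and without replicate 5 (0.115), and edgeR's filterByExpr drops the gene. No phase contrast passed for it or the other 7 genes, beside 0.0845% of all genes in induction, 0.44% in maintenance, 0.623% in recovery and 0.302% in recovery against maintenance. For Igf2, recovery against maintenance gave 1.87 ± 0.70 (SE) with an FDR of 0.414. At 24 weeks against LP its edgeR FDR was 0.538, and the exact permutation test gave p = 0.182 before adjustment.

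A harmonic with a period of 32 weeks, LP at time 0, passed for 2 IGF genes of the pituitary gland, beside 5.70% of all genes. Igf2 had an amplitude of 1.63 on the log2 scale and a peak at week 24.3 (FDR 0.0342). Igfbp4 had 1.36 and week 21.7 (FDR 0.0274), from 7 libraries and 21 counts, of which 12 were in 1 library at 20 weeks. Each was called in 7 of 12 alternatives, with FDR of 0.00106 to 1 for Igf2 and 0.0169 to 1 for Igfbp4. In the other tissues 0 of the 8 passed in edgeR, beside 1.71% of all genes in the MBH, 3.07% in the DMH and 0.538% in the PVN. Unadjusted p was below 0.05 for Igfbp4 in the MBH (0.0403), Igfbp2 in the DMH (0.00782) and Igf1 in the PVN (0.00823).

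Igfbp5 and Igfbp7, read in 48 and 47 of 54 libraries, were the IGF genes most often seen in the pituitary gland. Igfbp5 had 40.6, 76.8, 39.8, 25.3, 61.4 and 22 CPM in LP and 0, 41.3, 17.5, 13.3, 0 and 0 CPM at 4 weeks. At 4 weeks 2 libraries were read below every LP value, and the 3 with 0 counts allow 42.3 to 54.3 CPM each, which reaches into the LP range. The exact permutation p was 0.0152, adjusted 0.970. The mean was 25.1 ± 14.9 CPM at 8 weeks and between 32.2 and 55.1 CPM from 12 weeks on, against 44.3 ± 21.2 in LP. Igfbp7 had 39.4 ± 14.3 CPM in LP and group means of 30.8 to 61.5 in SP. Igf1r ranged widely, from 23.3 ± 36.4 CPM in LP to 92.0 ± 96.7 at 28 weeks. Igf1 was read in 5 pituitary libraries.

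In the PVN 0 of the 8 genes passed over the 9 groups in edgeR, beside 0.0158% of all genes (3 of 18960). Unadjusted p was below 0.05 for Igf1 (0.0120) and Igf1r (0.0478), and for 1166 of all genes. Igfbp7 was read in 46 and Igfbp5 in 37 of 54 PVN libraries, and the others in 6 to 29. Igfbp7 was level, with group means of 22.2 to 35.4 CPM. Igfbp5 ran from 5.87 ± 7.19 CPM at 24 weeks to 19.9 ± 9.19 at 32 weeks. Igf1, with 31 counts in all, was read in 3 of 6 libraries in LP and at 4 weeks (means 4.05 ± 5.92 and 6.58 ± 7.91 CPM) and in none at 28 weeks, which allows up to 3.45 CPM. Its log2 fold change in recovery was -1.94 ± 0.76 (SE) with an FDR of 0.978. None of the 8 passed in a phase in edgeR, beside 0% of all genes in induction, 0.0158% in maintenance and 0.00527% in recovery, and 1 of the 8 had an unadjusted p below 0.05, in recovery. The phase medians of the 8 genes were -0.03, 0.12 and -0.12, and those of all genes 0.05, 0.00 and 0.00.

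Single weeks against LP gave no call in any tissue in edgeR, over 64 tests of IGF genes each, beside 0.00930% of all gene and week tests in the MBH, 0.00401% in the DMH, 0 in the PVN and 0.00278% in the pituitary gland. Unadjusted p was below 0.05 in 4, 4, 3 and 3 of them. Exact permutation tests of CPM, whose smallest p with 6 against 6 is 0.00216 (924 splits), were below 0.05 in 4, 2, 0 and 1. No SP group of an IGF gene lay wholly above or below LP, beside 0.114% of all gene and week pairs in the MBH, 0.0424% in the DMH, 0.0719% in the PVN and 0.0245% in the pituitary gland. Ordering the 9 group means of each gene in each tissue gave 256 pairs of neighbours, and in 0 of them did the means differ by more than the larger SD. The highest and lowest means did so in 7 of 32 orders: Igf2, Igf1r, Igfbp2, Igfbp3 and Igfbp4 in the MBH, Igfbp2 in the DMH and Igfbp5 in the PVN. LP was the highest group in 4 orders, the lowest in 1 and tied for the lowest at 0 in 2.

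The tissues of the same hamsters could be compared for the MBH, DMH and pituitary gland. With edgeR's filterByExpr on low counts, 1 of the 8 genes (Igf1r) entered the comparison of the MBH with the DMH, and none that of the pituitary gland with the MBH. Igf1r was higher in the MBH than in the DMH by 0.97 ± 0.33 (SE, log2; FDR 0.0107), beside 65.9% of 5281 genes called, and without the hamster as a block by 0.49 (FDR 0.109). All further values use a filter of at least 1 count, chosen after seeing the data. The median of all genes was then 0.74 (log2, MBH minus DMH) with TMM, 2.53 without and 0.40 with the highest isoform, and 45% of 17756 genes were called. The values below are therefore also given less that median.

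Igf2, Igfbp2 and Igfbp3 were higher in the MBH than in the DMH, by 2.92 ± 0.42, 2.38 ± 0.39 and 2.78 ± 0.65 on the log2 scale (edgeR FDR 2.87e-10, 2.21e-08 and 0.000128). Less the median of all genes, they lay at 1.53 to 2.66, 1.64 to 2.05 and 1.33 to 2.05 over 5 settings of scaling and isoforms, and were called in each. In CPM without TMM, Igfbp2 was higher in the MBH in 49 of 54 hamsters and Igf2 in 46, and Igfbp3 was higher in 36 and equal at 0 in 18. In the DMH, Igfbp2 was read in 21 of 54 libraries, Igf2 in 15 and Igfbp3 in 5, the last from 8 counts. Many of these hamsters thus set an MBH count against a DMH count of 0, which does not order the tissues in a single hamster. Igfbp5 was called in 5 of 5 settings too, at 0.33 to 0.75 above the median. Igf1r and Igfbp4 were called in 4 of 5, and Igf1r lay between -0.10 and 1.04 around the median. Igf1 and Igfbp7 were called only without TMM, and lay below the median of all genes in all 5 settings.

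Igfbp3, Igfbp5 and Igfbp7 were higher in the pituitary gland than in the MBH, by 1.51 ± 0.43, 1.53 ± 0.32 and 1.78 ± 0.32 (log2, edgeR FDR 0.00124, 8.75e-06 and 1.05e-07). The median of all genes was -1.18 and 54.5% of 17139 genes were called. Less that median they lay at 2.43 to 2.99, 2.14 to 2.98 and 2.25 to 3.31 over the 5 settings. Igfbp5 was higher in the pituitary gland in 47 of 54 hamsters and Igfbp7 in 46, but Igfbp3 in 23 and lower in 22. Igf2, Igfbp2 and Igfbp4 were lower in the pituitary gland, by -1.85 ± 0.48, -2.82 ± 0.50 and -2.56 ± 0.59, in 5 of 5 settings, and Igf1 by -3.32 ± 0.68 in 4 of 5. For Igf1 the MBH value sums 20 isoforms and the pituitary value 4. Its difference was -1.90 with shared isoforms and -1.57 with the highest isoform (edgeR FDR 0.113). Less the median of all genes these 4 genes lay closer to 0, Igf2 at -0.78 to -0.57, Igfbp2 at -1.75 to -1.57, Igfbp4 at -1.67 to -0.35 and Igf1 at -2.60 to -0.70. Igf1r was called in 2 of 5 settings, higher in the pituitary gland, and lay at 1.46 to 2.01 above the median. By the labels one kit made all libraries, while the study's methods name another kit for the pituitary gland. If so, tissue and kit cannot be told apart.

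**Figure D4:**
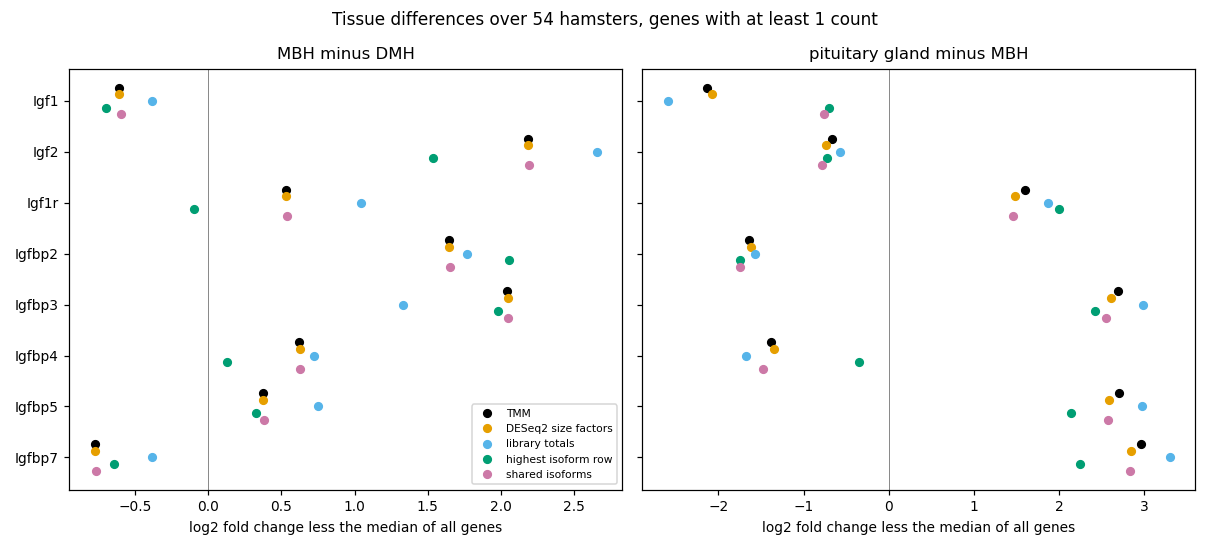
Log2 difference between tissues of the same 54 hamsters less the median of all genes (horizontal axes) for the 8 IGF genes (rows), MBH minus DMH and pituitary gland minus MBH, under 5 settings of scaling and isoforms (colours), each with genes of at least 1 count. Igf2, Igfbp2 and Igfbp3 lie right of 0 in the first panel, and Igfbp3, Igfbp5 and Igfbp7 furthest right in the second.

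The difference between tissues did not change with phase for any of the 8 genes at an FDR below 0.1 in edgeR. Igfbp2 is given here because of its call in the DMH. Its log2 fold change in induction, MBH minus DMH, differed by 2.68 ± 1.23 (SE, edgeR, unadjusted p = 0.0293, FDR 1), which did not pass. The median of all genes was 0.29, and 0.0563% of them were called. In maintenance the difference for Igfbp2 was 2.11 ± 1.05 (edgeR FDR 0.938), beside a median of 0.42 and 0.0676% of all genes called. In recovery 0.0507% of all genes were called. Between the pituitary gland and the MBH the shares were 0.0525%, 0.0408% and 0.0408% in the 3 phases. Between the MBH and another tissue, 8 correlations of an IGF gene over the 54 hamsters were computed (log2 CPM, permutation tests), and the smallest adjusted p was 0.624 for Pearson's r and 0.720 for Spearman's rho.

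MBH Igfbp2 varied with the markers of tanycytes, the glia that line the third ventricle. Pearson's r with their summed level was 0.547 over 54 libraries (log2 CPM; permutation p = 1e-05, the smallest that 100000 permutations give, adjusted 0.00032 over 32 relations). Spearman's rho was 0.468 (adjusted permutation p = 0.00768). Without the 2 libraries farthest from the median r was 0.414, and on deviations from the group means 0.415. The list, with 10 of 10 genes read in at least 27 libraries, had a group median of 284 CPM in LP and 78.4 to 188.2 CPM in SP. Igfbp2 also varied with the 10 genes of leptomeninges and fibroblasts (r = 0.496, rho = 0.616, adjusted permutation p 0.0016 and 0.00032, r without 2 libraries 0.530). That list had a group median of 50.3 CPM in LP and 21.6 to 43.5 in SP. Libraries share depth and scaling between a gene and a list, and the part of either list in the SP values of Igfbp2 was not tested.

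**Figure D5:**
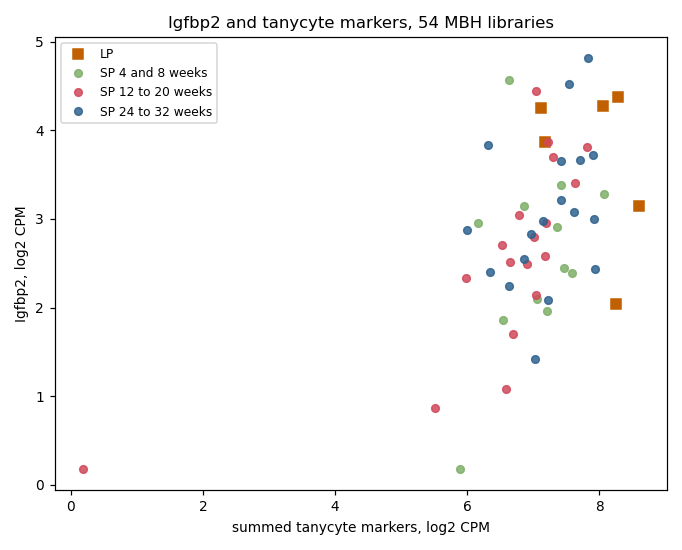
Igfbp2 (vertical axis, log2 CPM) against the summed level of the 10 tanycyte markers (horizontal axis, log2 CPM) in the 54 MBH libraries, coloured by phase. Pearson's r is 0.547, and LP libraries (squares) lie towards the right.

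Igf2 in the MBH varied with choroid plexus markers, by r more than by rho (0.510 and 0.271, adjusted permutation p 0.00064 and 0.0818). Without 2 libraries r was 0.399 and rho 0.187. Without the shallow library they were 0.462 and 0.231 (adjusted permutation p 0.00213 and 0.222). On deviations from group means the adjusted permutation p was 0.00432 for r and 0.0567 for rho. With leptomeninges Igf2 had r = 0.277 and rho = 0.401 (adjusted permutation p 0.0992 and 0.0186). On deviations these adjusted p were 0.211 and 0.114. Igfbp7 had r = 0.460 with endothelium and 0.349 with pericytes, which rested on 2 libraries, as r without them was -0.03 and 0.00. In the PVN Igfbp2 varied with tanycyte, choroid plexus and leptomeninges markers (r = 0.402, 0.414 and 0.356, adjusted permutation p 0.0149, 0.0125 and 0.0310). In all, 9 of the 32 relations passed at an adjusted p below 0.1 for both r and rho, 4 in the MBH, 1 in the DMH, 3 in the PVN and 1 in the pituitary gland.

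The genes most like an IGF gene over the 54 libraries were ranked by Spearman's rho of log2 CPM among genes read in at least 45 libraries, as a description. In the MBH, Igf1 was most like Agpat1 (0.66), Aff4 (0.64) and Cds2 (0.62), Igf2 most like Gm5915 (0.60), Cdk5rap3 (0.59) and Ptgds (0.58), and Igfbp2 most like Cdk5rap3 (0.64). Ptgds encodes a prostaglandin synthase abundant in leptomeninges and choroid plexus. The highest rho of the remaining MBH genes lay at 0.57 for Igf1r (Slc4a4), 0.58 for Igfbp3 (Tmem209) and Igfbp7 (Ifi27l2a), 0.62 for Igfbp5 (Supt5) and 0.64 for Igfbp4 (Psmg1). Elsewhere the highest were Igf1r with Ntm in the DMH (0.72), Igfbp7 with Dennd2a in the PVN (0.71), and Igf1r with Lrp11 and Igfbp5 with Akap5 in the pituitary gland (0.54 each).

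The other genes of the IGF and growth hormone axes gave few calls over the 9 groups, with the same percentages of all genes as background. Of 7 other receptors and binding proteins, 6 were listed in the MBH, 4 in the DMH, 5 in the PVN and 6 in the pituitary gland, and 1 was called, Insr in the pituitary gland (edgeR FDR 0.0516). Of 8 genes taken here as proteases of binding proteins and their inhibitors, 8, 6, 8 and 8 were listed in these tables. From them 1 was called, Prss23 in the pituitary gland (edgeR FDR 0.0156). Whether Prss23 acts on IGF binding proteins was not tested. Its log2 fold change in recovery was -4.06 against LP (edgeR FDR 0.0365, kept in 9 of 12 alternatives, 0.000593 to 1) and -4.19 against maintenance (FDR 0.0242, kept in 8 of 12, 1.88e-05 to 1). In LP it was read in 1 of 6 libraries, with 115 CPM from 24 counts, of which the highest isoform held 2, so the first value rests on that library. Pappa2, another of them, passed the harmonic in the pituitary gland (FDR 0.0564, kept in 7 of 12 alternatives, 0.0569 to 1) from 3 counts in 1 library at 16 weeks. Of 14 genes of receptor signalling, 14, 14, 13 and 14 were listed and 1 was called, the kinase Akt2 in the pituitary gland (FDR 0.0669). Insr, Prss23 and Akt2 were read in 0 to 3 libraries of a group, and their calls over the groups were kept in 7, 10 and 8 of 12 alternatives. In maintenance the median log2 fold changes of these 3 lists were 0.00, -0.20 and -0.06 in the MBH, where that of all genes was 0.00, and 0.52, 0.46 and 0.24 in the pituitary gland, where it was 0.19.

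Of the 10 growth hormone axis genes, 9, 7, 6 and 8 were listed. Socs2, an inhibitor of growth hormone signalling, was called in the DMH (edgeR FDR 0.0553) and the pituitary gland (0.0766), from 8 and 6 libraries, and was kept in 3 of 12 and 10 of 12 alternatives (0.00234 to 1 and 0.000101 to 0.918). It also passed the harmonic in the pituitary gland (FDR 0.0697, kept in 5 of 12, 6.6e-05 to 0.431). Gh was called in the pituitary gland (FDR 0.0643), and in 8 of 13 alternatives (5.9e-16 to 1). It had 41937 ± 11176 CPM in LP (28031 to 53320), 71354 ± 21277 at 16 weeks and 69505 ± 16865 at 28 weeks. Sst, which encodes the growth hormone inhibitor somatostatin, passed the 32-week harmonic in the MBH with an amplitude of 0.54 and a peak at week 14.8 (FDR 0.0327, kept in 10 of 14 alternatives, 0.000814 to 0.263). It had 44.2 ± 17.3 CPM in LP, 101 ± 40.7 at 16 weeks and 42.7 ± 16.4 at 32 weeks. In the same libraries no IGF gene passed that test.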

How the data were processed

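The MBH, DMH, PVN and pituitary gland of 54 hamsters were sequenced as nanopore cDNA. Hypothalamic regions were taken bilaterally with a 1 mm biopsy punch from coronal sections. The authors deposited expected counts, estimates per isoform without normalization, made with guppy, Porechop, Filtlong, Minimap2 against the mouse genome, Salmon and an edgeR filter on low counts. The PVN table shares 0 isoform identifiers with the others, so the mouse reference named in the methods may not hold for it. Which annotation gave the PVN isoforms is not stated in the sources read here. Isoform rows with the same gene symbol were added up and rounded to whole numbers, and 0 columns were left unmapped.

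Each tissue was fitted with the quasi-likelihood test of edgeR 4.0.16 in its edgeR 3 form (R 4.3.3, TMM, 9 groups, all genes of the table, BH-corrected FDR below 0.1). Tissues were compared with the hamster as a block. Exact permutation tests and correlations (100000 permutations, log2 CPM with a prior count of 2) used Python 3.11.15, numpy 2.4.6 and scipy 1.17.1. A count of 0 allows 3 counts over the group, and this limit covers counting error only. It is in summed counts, so it is too low where reads are repeated over isoforms. The SE of an edgeR log2 fold change is its size divided by the square root of the F statistic. It was 0 for PVN Igfbp3 in induction, so it is no separate measure of spread. SE values that could not be derived in this way are not given. The scripts were tested on simulated data.

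The 8 genes and all lists were chosen with earlier results of these data known. Named genes are the 8, list genes with an FDR below 0.1, and for each IGF gene read in at least 27 libraries the 3 most like it. Alternatives were DESeq2 size factors, no TMM, filterByExpr, edgeR 4, DESeq2 1.42.0, the highest isoform, an FDR below 0.05, a block of replicate numbers, no libraries under 10000 counts, and each replicate left out. The filter of 1 count between tissues and the exact tests without the shallow library were added after seeing the data. Sequences were not used here.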

Additional observations from a re-analysis of the deposited data

Results flagged for a closer look

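In 81 groups of 6 libraries with enough counts, Dixon's gap ratio (the distance of an extreme library to its neighbour over the range of the group) was above its 95% critical value in 11, or 13.6%. That critical value flags about 1 in 20 groups of normal values. CPM from few counts need not be normal, so an excess over chance is not shown. All were single high libraries, and no reason was tested.

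In the MBH at 32 weeks SP, 1 library (replicate 1) stood apart for both Igf2 (65.3 CPM, next 9.99, ratio 0.851) and Igfbp2 (21.8 CPM, next 6.88, ratio 0.852). Igf2 also stood apart at 24 weeks (49.2 CPM, next 16.7, ratio 0.660) and Igf1r in LP (37.6 CPM, next 15.3, ratio 0.695). Igfbp3 did so at 4 weeks (6.59 CPM, next 3.28, ratio 0.663) and 28 weeks (7.73 CPM, next 2.20, ratio 0.716), and Igfbp4 at 32 weeks (28.3 CPM, next 9.68, ratio 0.782).

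In the DMH, Igfbp7 at 28 weeks had 19.6 CPM in 1 library, from 8 counts, and 5.53 in the next (ratio 0.718). In the PVN at 4 weeks, Igfbp2 had 40.7 CPM from 4 counts (next 12.7, ratio 0.687) and Igfbp5 29.6 CPM from 15 counts (next 13.2, ratio 0.639), in different libraries. In the pituitary gland, Igfbp5 at 32 weeks had 98.9 CPM from 7 counts (next 43.2, ratio 0.631).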

How the results depend on the processing

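The share of all genes called over the 9 groups moved with the processing, and the cause was not tested. In the MBH 0.442% became 1.23% without TMM, 0.0434% with filterByExpr, 0.0597% with DESeq2, 0.213% at an FDR below 0.05 and 0.0347% to 0.149% with a replicate left out. In the DMH 4.62% became 8.9% without TMM, 0.124% with filterByExpr, 0.156% with edgeR 4, 0.00459% with DESeq2, 0.147% with the highest isoform, 1.87% at an FDR below 0.05 and 0.486% to 3.73% with a replicate left out. In the PVN 0.0158% became 0.0316% with DESeq2 size factors, 0.211% with edgeR 4, 0.237% with the highest isoform, 0 with filterByExpr, DESeq2, an FDR below 0.05 and no shallow libraries, and 0.00527% to 0.0475% with a replicate left out. In the pituitary gland 9.56% became 0.374% with filterByExpr, 0.00447% with DESeq2, 0.142% with the highest isoform and 6.01% at an FDR below 0.05.

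Of the IGF genes, the 1 called over the groups in the DMH became 0 without TMM, with filterByExpr (which drops it), edgeR 4, DESeq2, the highest isoform and an FDR below 0.05, and 0 to 2 with a replicate left out. In the pituitary gland 1 became 0 with filterByExpr, DESeq2 and the highest isoform, and 0 to 1 with a replicate left out. The 1 phase call in the DMH became 0 with DESeq2 size factors and each of the same alternatives but no TMM, and 0 to 1 with a replicate left out. Without replicate 5 its maintenance value passed as well (-3.87). The 2 harmonic calls in the pituitary gland became 1 with edgeR 4, 0 with filterByExpr, DESeq2 and the highest isoform, and 0 to 2 with a replicate left out, and the 0 in the DMH and in the PVN 0 to 1 each. The 2 exact tests below 0.05 in the DMH became 0 with the highest isoform.

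Replicate numbers are not stated to mark a shared batch, and not every pair of libraries with the same number was correlated over 0.1 (lowest -0.55 to -0.07 by tissue), so the libraries were not taken as paired. The mean correlation of deviations was higher for the same number (0.0501 to 0.116) than for others (-0.02 to 0.00), and 25 to 42 of 54 libraries correlated best with their own number, a hint from the data and not from the design that libraries with the same number share something. With replicate number as a block the genes called were 0.109% in the MBH, 1.04% in the DMH and 0.396% in the PVN, and the IGF genes called were 0 over the groups and in induction in the DMH (Igfbp2, edgeR FDR 0.118 and 0.149) and 0 for the harmonic in the pituitary gland (Igf2 0.117, Igfbp4 0.374), while the call of Igf2 over the groups there was kept (0.000175).

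Between the MBH and the DMH the 1 IGF gene called became 6 with a filter of 1 count, 6 with that filter and DESeq2 size factors, 4 with it and the highest isoform, 8 with it and no TMM and 6 with it and shared isoforms. With filterByExpr it became 0 with the highest isoform and without the hamster block, and 1 to 2 with a replicate left out. Between the pituitary gland and the MBH 0 became 7 in each of these but 8 without TMM. Other settings of that comparison with the first filter were not run since no IGF gene passed it, and the DMH and the pituitary gland hold no library under 10000 counts. Of the summary values under alternatives, 194 were unmoved and 92 moved. The highest isoform held few reads of most IGF genes, which limits what these tables can show.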
